A study of Caenorhabditis elegans with 12 samples.

Results

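The comparison described here is that of C. elegans lacking both of its metallothionein genes with wild type, when neither strain had been given cadmium. It covers 6 of the 12 expression arrays of the series, picked by their titles: 3 arrays of the double knockout mtl-1,mtl-2(zs1), called MT KO, and 3 arrays of wild type. Both strains carry the label N2 (Bristol), and the knockout is represented by the single allele combination in that name. All animals were whole L4 larvae, the last larval stage, grown at 20 °C from a synchronised L1 culture on plates seeded with Escherichia coli OP50. The other 6 arrays hold the same strains raised with 30 µM Cd, and they serve below as other animals in which the strain difference was measured; they also enter the estimate of the spread and the choice of the probe set that represents a gene. The arrays of a group are numbered 1 to 3, with no statement that they came from separate cultures, so the p-values speak only of array-to-array spread, part of which may be technical.

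Metallothioneins are small cysteine-rich proteins that bind zinc, copper and cadmium through thiolate clusters. In C. elegans mtl-2 is made mainly in the intestine, and mtl-1 in the intestine and a few pharyngeal cells; both are strongly induced by cadmium. Other routes by which the worm handles metals are phytochelatins, made by pcs-1, the ABC transporters HMT-1 and MRP-1, zinc transporters of the CDF and ZIP families, and ferritins.

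Each value below is a log2 GCRMA signal of 1 probe set on 1 array, so a difference of 1 is a change of signal of 2-fold. Differences are MT KO minus wild type without Cd unless stated otherwise, a value after ± is the SD over 3 arrays, and adjusted p-values are Benjamini-Hochberg values from limma over 22548 probe sets, with 0.05 as the threshold. A low signal may be background, and the median of all values, 4.026, is the level against which signals are called dim. Signals of different probe sets cannot be set against each other as amounts of RNA. The array medians lay between 3.977 and 4.067. The gap between probe sets at the 3′ and 5′ ends of the GAPDH and actin transcripts, a measure of RNA quality, was 1.48, 1.27 and 1.39 on the MT KO arrays and 2.81, 1.84 and 1.28 on the wild-type arrays. Replicate 1 of wild type had the widest gap and the lowest weight of the 6 arrays (0.289, against 0.778 to 1.4 on the other 5) when limma estimated array weights.

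The knockout was visible in the arrays. The 3 probe sets of mtl-2 gave 3.86, 3.56 and 4.36, 3.67, 3.64 and 3.80, and 5.78, 4.45 and 4.93 on the MT KO arrays, against 11.81, 11.66 and 11.11, 11.68, 11.54 and 11.33, and 10.26, 9.81 and 9.5 on the wild-type arrays. The signal was thus near the middle of the array in MT KO animals and among the bright probe sets in wild type, even without cadmium. The differences were −7.60, −7.81 and −4.80, which are 194-fold, 225-fold and 27.9-fold lower signals, with limma adjusted p = 3.29e-07, 1.72e-08 and 0.000359. The MT KO means of the first 2 probe sets, 3.93 and 3.71, were below the median of all values and may be background, so those folds may understate the loss. The design names of the first and the third of these probe sets mark them as open to cross-hybridisation.

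The single probe set of mtl-1 read 3.73, 3.43 and 3.56 in MT KO and 5.1, 4.47 and 4.69 in wild type. The groups did not overlap, but the wild-type signal was itself close to the median of all values, so in animals without cadmium there was little mtl-1 signal to lose. The difference was −1.18 (SE 0.21, 2.26-fold lower, limma adjusted p = 0.0291). That call ended (limma adjusted p up to 0.098) without MT KO replicate 2, MT KO replicate 3, wild-type replicate 1 or wild-type replicate 3. With 30 µM Cd the same probe set averaged 4.02 ± 0.22 in MT KO and 9.85 ± 0.38 in wild type. The first probe set of mtl-2 averaged 3.62 ± 0.01 in MT KO and 11.43 ± 0.15 in wild type with Cd, a difference of −7.81. In wild type its signal with Cd differed by −0.09 from that without Cd (limma adjusted p = 0.98). The loss of mtl-2 signal was thus large in both conditions, and that of mtl-1 was large in the cadmium arrays.

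**Figure D1:**
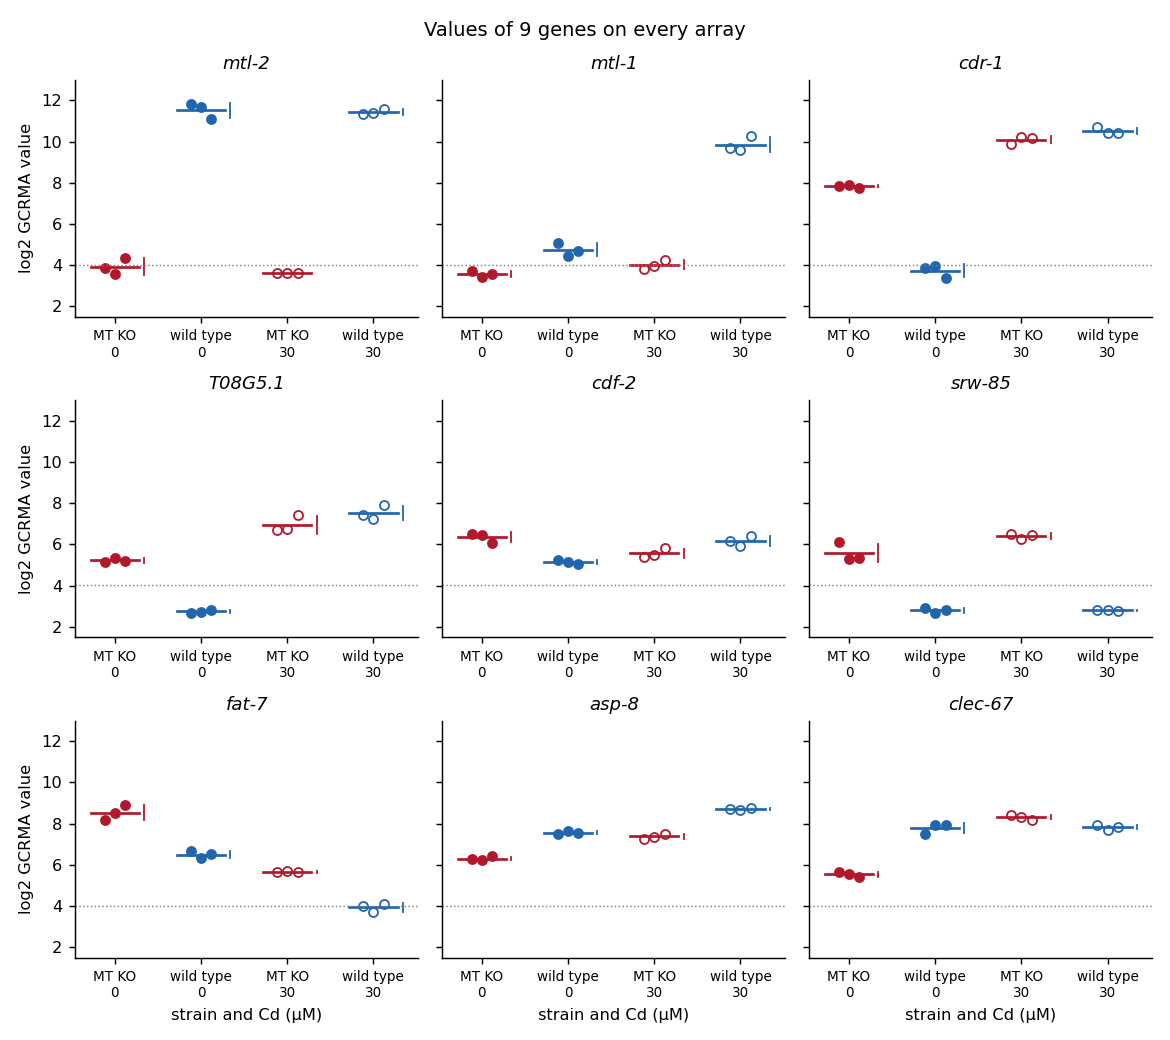
Log2 signal of 9 genes on each of the 12 arrays, with MT KO left of wild type in each pair; filled points are arrays without Cd, open points arrays with 30 µM Cd, short lines group means, side bars 1 SD and the dotted line the median of all values (4.026). Without Cd, cdr-1, T08G5.1, cdf-2, srw-85 and fat-7 lay higher on all 3 MT KO arrays than on any wild-type array, and mtl-2, mtl-1, asp-8 and clec-67 lower.

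Without cadmium, 371 of 22548 probe sets (1.65%) passed the test, of which 212 (0.94% of all) were higher and 159 (0.705% of all) lower in MT KO. In all 371 the 3 arrays of one strain lay above the 3 of the other, as they did in 3574 probe sets (15.9%) of all. Most differences were small: the median size among the 371 was 0.66 and over all probe sets 0.08, and 70 reached 2-fold, 40 of them higher and 30 lower. A change of 4-fold or more was seen in 9. In 103 the lower group mean was below the median of all values, and in 49 both means were. Counted by gene, each with its brightest probe set, 289 of 17118 genes (1.69%) passed, 163 higher (0.952%) and 126 lower (0.736%). Higher probe sets made up 57.1% of the 371, and 47% of 430 when all arrays were first shifted to one median.

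These counts rest on the spread of all 12 arrays. With the 6 arrays without Cd alone, 23 probe sets passed, 9 higher and 14 lower, and 22 of them were among the 371. Leaving out single arrays changed the count most for MT KO replicate 2 (170) and wild-type replicate 2 (168), while array weights raised it to 593.

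**Figure D2:**
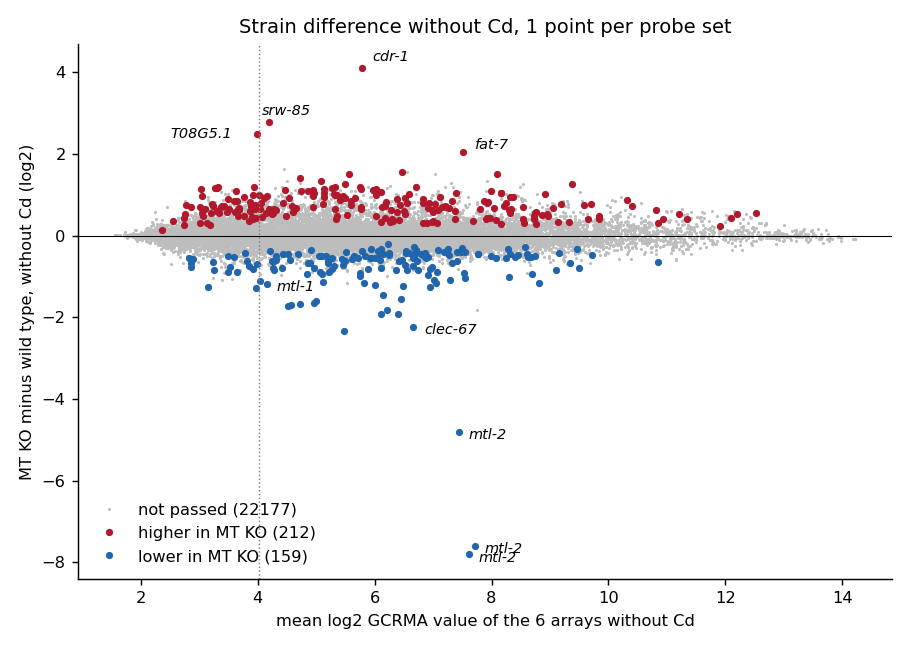
Difference in log2 signal, MT KO minus wild type without Cd (vertical axis), against the mean log2 signal (horizontal axis), 1 point per probe set, with the probe sets that passed the test coloured. The 3 probe sets of mtl-2 lie lowest, between −4.80 and −7.81, cdr-1 lies highest at 4.10, and most coloured points lie within 1 of 0.

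Among the 15 largest rises, that of cdr-1 stood out. This gene codes for a small intestinal protein of the cadmium-responsive family that resembles glutathione S-transferases. Its signal was 7.84, 7.88 and 7.77 in MT KO and 3.88, 3.95 and 3.37 in wild type. A dim signal in wild type was thus a clearly bright one on every MT KO array, without any cadmium. That is a difference of 4.10 (SE 0.15, 17.1-fold, limma adjusted p = 2.43e-06), and the call held with each of the 6 arrays left out in turn. Since the wild-type mean of 3.73 may be background, that fold may be too small. Cadmium raised the gene in both strains, to 10.10 ± 0.17 in MT KO and 10.51 ± 0.16 in wild type, where the strain difference of −0.41 did not pass (limma adjusted p = 0.149). Of the 6 measured genes of the cdr and numr list only cdr-1 passed (16.7%, beside 1.69% of all genes). In a list this small 1 call already gives a share above that of all genes. The median of the list was −0.08 and its lowest difference −0.28.

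The uncharacterised gene T08G5.1 read 5.14, 5.35 and 5.19 in MT KO and 2.68, 2.72 and 2.84 in wild type (difference 2.48, SE 0.22, limma adjusted p = 0.00121). It is the nearest measured gene on 1 side of mtl-2 on chromosome V. Like cdr-1, it was below the median of all values in wild type without Cd and rose there with Cd, to 7.54 ± 0.35. With Cd its strain difference was −0.59 (limma adjusted p = 0.151).

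A predicted chemoreceptor of the srw family, srw-85, gave 6.10, 5.30 and 5.35 in MT KO and 2.92, 2.67 and 2.84 in wild type. The wild-type arrays were all dim, and every MT KO array was above the median of all values. The strains differed by 2.78 (SE 0.18, limma adjusted p = 0.000196) without Cd and by 3.61 in the arrays with Cd (limma adjusted p = 1.91e-05). The wild-type mean with Cd was 2.80 ± 0.04, so this gene was dim in wild type in both conditions.

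The stearoyl-CoA desaturase fat-7, which makes oleic acid, gave 8.18, 8.52 and 8.89 in MT KO and 6.65, 6.32 and 6.51 in wild type. All 3 MT KO arrays lay well above all 3 wild-type arrays. The difference was 2.04 (SE 0.17, 4.11-fold, limma adjusted p = 0.000863). With Cd the gene was lower in both strains, at 5.65 ± 0.03 in MT KO and 3.93 ± 0.21 in wild type, and the strain difference there was 1.72 (limma adjusted p = 0.000583).

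The remaining 11 of the 15 rises were between 1.15 and 1.52. The small heat shock protein gene hsp-12.3 averaged 6.32 ± 0.13 in MT KO and 4.80 ± 0.49 in wild type. The acyl-CoA synthetase acs-2, which activates fatty acids for mitochondrial oxidation, averaged 8.85 ± 0.52 in MT KO and 7.33 ± 0.23 in wild type. Its second probe set differed by 0.61 (limma adjusted p = 0.581), so the rise is that of 1 of its 2 probe sets. The zinc transporter cdf-2 and the ferritin ftn-1 are described with the metal genes below. The nuclear hormone receptor nhr-156 gave 4.57, 4.62 and 4.40 in MT KO and 3.37, 3.32 and 3.32 in wild type (difference 1.19, limma adjusted p = 2.49e-05). Its arrays were close together within each strain, and its call held under every alternative run.

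The lysosomal lipase gene lipl-4 rose by 1.15 (limma adjusted p = 0.00991) and the C-type lectin clec-52 by 1.17 (limma adjusted p = 0.00549). The uncharacterised genes F53B6.4 and Y57G11A.2 rose by 1.20 and 1.15, and sss-1 and msrp-1, both on the sperm list, by 1.41 and 1.18. Leaving out 1 array ended some of these calls. For acs-2 that held without replicate 1 or 2 of MT KO or replicate 2 or 3 of wild type (limma adjusted p up to 0.0836), for F53B6.4 without replicate 2 or 3 of either strain (up to 0.0787), and for Y57G11A.2 and msrp-1 without replicate 2 of either strain (limma adjusted p up to 0.0607 and 0.0557).

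The 15 largest falls, after mtl-2, began with the C-type lectin clec-67, of a family often regulated in infection. It read 5.65, 5.56 and 5.40 in MT KO and 7.49, 7.93 and 7.92 in wild type. The gap between the groups was several times the spread within either. The difference was −2.24 (SE 0.12, 4.73-fold lower, limma adjusted p = 3.69e-05). In the arrays with Cd it was 0.49 (limma adjusted p = 0.0383), with a mean of 8.31 ± 0.10 in MT KO and 7.82 ± 0.11 in wild type, so the sign of the strain difference was the opposite one.

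The acyl-CoA oxidase acox-1.2, a peroxisomal enzyme of the pathway that shortens ascaroside side chains, gave 5.45, 4.88 and 5.57 in MT KO and 7.09, 7.02 and 7.23 in wild type (difference −1.81, limma adjusted p = 0.00334). With Cd both strains were at the low level, 5.02 ± 0.31 in MT KO and 4.97 ± 0.11 in wild type. The infection response gene irg-1 gave 3.73, 3.61 and 3.65 in MT KO and 4.78, 5.65 and 5.74 in wild type (difference −1.73, limma adjusted p = 0.0098). All 3 MT KO arrays were below the median of all values, and the wild-type arrays were spread widely. The aspartyl protease asp-8 gave 6.28, 6.23 and 6.41 in MT KO and 7.5, 7.65 and 7.55 in wild type (difference −1.26, limma adjusted p = 3.36e-05). Its arrays lay close together within each strain, and its difference with Cd was of like size (−1.33, limma adjusted p = 1.91e-05).

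The P-glycoprotein gene pgp-5, an ABC transporter, fell by 1.67 to 3.89 ± 0.07 in MT KO, against 5.57 ± 0.64 in wild type. Among uncharacterised genes, B0024.4 differed by −1.91, Y48E1B.8 by −1.91, B0348.2 by −1.69, C34H4.1 by −1.65 and K11H12.4 by −1.24. The gene listed as srlf-34 averaged 4.20 ± 0.06 in MT KO and 5.79 ± 0.21 in wild type (difference −1.59). The degenerin-family channel acd-1 averaged 3.33 ± 0.32 in MT KO and 4.61 ± 0.30 in wild type (difference −1.28). The limma adjusted p-values of the 15 falls ran from 3.29e-07 to 0.0291, and those of the 15 rises from 2.43e-06 to 0.0261. The call for pgp-5 ended without MT KO replicate 2 (limma adjusted p = 0.0505), and that for acd-1 without MT KO replicate 3 (0.0589) or wild-type replicate 2 (0.0526).

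The next rise that was not named was 1.14 and the next fall −1.16, against 1.15 and −1.18 for the smallest ones named. The lower of the 2 group means was below the median of all values in 5 of the 15 rises and 6 of the 15 falls. Of the rises, 7 also rose with Cd in wild type and 2 fell there; of the falls, 9 also fell with Cd in wild type and 3 rose. The wild-type arrays without Cd enter both of those comparisons, so these counts are a description only. The test of Cd against no Cd in wild type was passed by 2693 of 22548 probe sets (11.9%), in either direction.

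**Figure D3:**
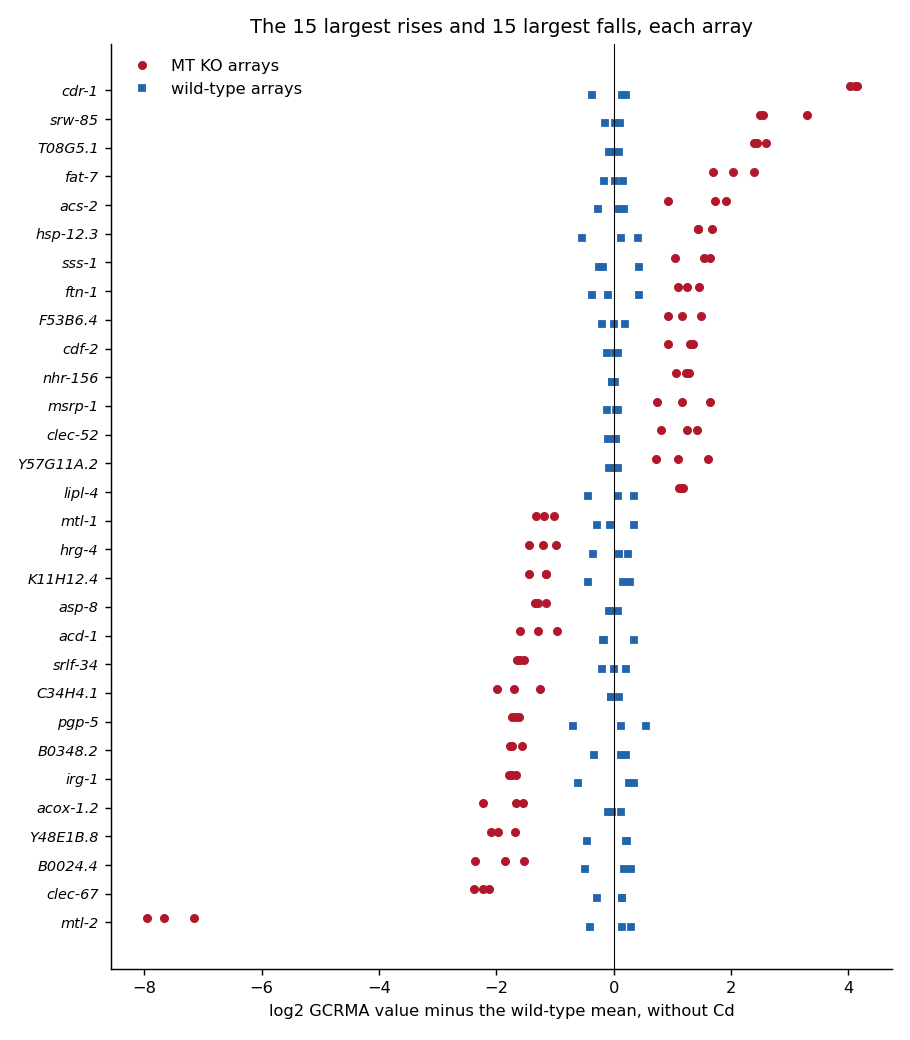
Log2 signal of the 30 named genes, 15 rises and 15 falls, on each of the 6 arrays without Cd, minus the wild-type mean of the gene, with MT KO points above wild-type points in the legend. The genes were picked for groups that do not overlap, so no MT KO point overlaps the wild-type points of its gene. The rises run from 1.15 to 4.10 and the falls from −1.18 to −7.60.

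Single genes of metal handling other than cdr-1 changed. In each of the lists below the share that passed was above the 1.69% of all genes, on small numbers of genes. These lists are so small that 1 call is enough for that. The zinc transporter cdf-2, which loads zinc into the gut granules of the intestine, gave 6.51, 6.45 and 6.07 in MT KO and 5.23, 5.17 and 5.04 in wild type. Every MT KO array was above every wild-type array. The strains differed by 1.20 without Cd (SE 0.16, limma adjusted p = 0.00917) and by −0.60 with Cd (limma adjusted p = 0.051). It was the only call among 20 zinc transporter and zinc sensor genes (5.0%), whose median difference was 0.0, as over all genes.

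Of 22 iron, heme and copper genes, 2 rose and 1 fell (13.6%), with a median of −0.05. The ferritin gene ftn-1, an iron store of the intestine, gave 5.96, 6.31 and 6.11 in MT KO and 5.30, 4.50 and 4.77 in wild type (difference 1.27, limma adjusted p = 0.0158). The second ferritin, ftn-2, bright in both strains, averaged 12.02 ± 0.10 in MT KO and 11.78 ± 0.04 in wild type (difference 0.24, limma adjusted p = 0.0384), while its dimmer second probe set differed by 0.0. The intestinal heme transporter hrg-4 gave 5.40, 5.63 and 5.16 in MT KO and 6.26, 6.85 and 6.71 in wild type (difference −1.21, limma adjusted p = 0.0195). The call for ftn-1 ended without MT KO replicate 2 (limma adjusted p = 0.0615), that for hrg-4 without MT KO replicate 3 or wild-type replicate 2 (up to 0.0703), and that for ftn-2 with any 1 array other than MT KO replicate 3 left out (up to 0.116).

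Of 8 genes of glutathione and phytochelatin synthesis and export, only the ABC transporter mrp-1 passed (12.5%). It averaged 8.50 ± 0.12 in MT KO and 8.99 ± 0.08 in wild type (difference −0.49, limma adjusted p = 0.0179), and its call ended without replicate 2 of either strain (limma adjusted p up to 0.0682). The phytochelatin synthase gene pcs-1 gave 6.51, 6.47 and 6.31 in MT KO and 5.94, 5.94 and 6.16 in wild type, a difference of 0.42 that did not pass (limma adjusted p = 0.166). The transporter gene hmt-1 gave 7.22, 7.22 and 7.30 in MT KO and 7.25, 7.32 and 7.41 in wild type (difference −0.08, SE 0.13, limma adjusted p = 0.978).

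Among detoxification enzymes, 3 of 45 glutathione S-transferase genes (6.67%) fell, beside 0.736% of all genes, and none rose. Under other settings some members of the family rose, 3 without wild-type replicate 3 and 1 each under 6 further settings, among them quantile normalization and array weights. The members that fell were gst-38, with 6.42 ± 0.20 in MT KO and 7.39 ± 0.15 in wild type (difference −0.97, limma adjusted p = 0.00613), gst-12 (−0.85, limma adjusted p = 0.0153) and gst-39 (−0.45, limma adjusted p = 0.0484). The signal of gst-12 was below the median of all values in both strains. The call for gst-39 ended whichever array was left out (limma adjusted p between 0.0596 and 0.144). The median over the 45 was −0.05.

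The shares that passed in the next 3 families, 2.74%, 3.12% and 3.77%, were nearer to the 1.69% of all genes. Of 73 cytochrome P450 genes 2 rose, cyp-14A2 by 1.11 (limma adjusted p = 0.0404) and cyp-33C7 by 0.66 (limma adjusted p = 0.0462). Of 64 UDP-glucuronosyltransferase genes, which couple sugars to small molecules, ugt-51 rose by 0.94 and ugt-31 fell by 1.15. Of 53 ABC transporter genes, pgp-5 and mrp-1 fell. None of 32 antioxidant and thiol redox genes passed, and these lay between −0.30 and 0.61. The call for cyp-33C7 ended with any 1 array left out (limma adjusted p up to 0.148), that for cyp-14A2 without replicate 2 or 3 of either strain (up to 0.125), and that for ugt-51 without replicate 2 of either (up to 0.0664); those for gst-38, gst-12 and ugt-31 held with each array left out.

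In the protein stress lists single genes passed. Of 17 cytosolic heat shock genes only hsp-12.3 passed (5.88%), and of 18 ER stress genes only ckb-2 (5.56%), which rose by 0.77 (limma adjusted p = 0.0322). Of 33 proteasome subunits only rpn-7 passed (3.03%), which rose by 0.34 (limma adjusted p = 0.0247), and of 11 mitochondrial stress genes none. In lists this small 1 call already gives a share above the 1.69% of all genes. The call for ckb-2 ended with any 1 array other than wild-type replicate 1 left out (limma adjusted p up to 0.105), and that for rpn-7 with any other than wild-type replicate 3 (up to 0.0787). None of 10 hypoxia and hydrogen sulfide genes and none of 9 SKN-1 pathway genes passed. The medians of these 6 lists were 0.04, 0.14, 0.04, 0.05, 0.21 and −0.05, beside 0.0 over all 17118 genes.

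Genes of lipid metabolism moved in both directions. Among 62 genes that activate or oxidise fatty acids, 4 passed (6.45%, beside 1.69% of all genes). Of these, acs-2 rose and the 3 acyl-CoA oxidase genes acox-1.2, acox-1.5 and acox-1.1 fell, by 1.81, 0.84 and 0.41. The signal of acox-1.5 averaged 8.68 ± 0.10 in MT KO and 9.52 ± 0.03 in wild type (limma adjusted p = 0.0404), and that of acox-1.1 averaged 7.34 ± 0.15 in MT KO and 7.75 ± 0.03 in wild type (limma adjusted p = 0.0194). These enzymes carry out the first step of peroxisomal oxidation. With Cd, acox-1.1 was higher in MT KO, by 0.39 (limma adjusted p = 0.00624).

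Of 21 desaturase and elongase genes 2 rose, fat-7 and fat-2 (9.52%, beside 1.69% of all genes). The delta-12 desaturase fat-2, which turns oleic into linoleic acid, averaged 11.47 ± 0.11 in MT KO and 10.93 ± 0.14 in wild type (difference 0.54, limma adjusted p = 0.0341). Of 8 lysosomal lipase-like genes lipl-4 alone passed (12.5%). Of 44 genes of central carbon metabolism only pck-3 did (2.27%, close to the share of all genes). It is a phosphoenolpyruvate carboxykinase gene (difference 0.45, limma adjusted p = 0.0153). None of 12 propionate breakdown genes passed, with a median of 0.32. The call for acox-1.5 ended with any 1 array left out (limma adjusted p up to 0.135), that for acox-1.1 without wild-type replicate 2 (0.0703), that for fat-2 without MT KO replicate 2 or 3 or wild-type replicate 1 or 2 (up to 0.114), and that for pck-3 without replicate 2 of either strain (up to 0.0578).

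Some genes of families known from the response to microbes passed as well. Among the 220 measured C-type lectins there were 4 rises and 2 falls (2.73%, close to the 1.69% of all genes), with a median of 0.0, and both group means were below the median of all values in 171. The bright lectin clec-47 gave 10.75, 10.84 and 10.68 in MT KO and 9.73, 9.93 and 9.99 in wild type (difference 0.87, limma adjusted p = 0.00468). With Cd its signal was much lower in both strains, at 7.16 ± 0.12 in MT KO and 6.82 ± 0.16 in wild type. The other 2 rises in the family, beside clec-52, were clec-54 (0.81, limma adjusted p = 0.0384) and clec-48 (0.72, limma adjusted p = 0.0274), and the other fall, beside clec-67, was clec-41 (−1.08, limma adjusted p = 0.0478). The call for clec-41 ended with any 1 array left out (limma adjusted p up to 0.135), and that for clec-48 without MT KO replicate 2 or 3 or wild-type replicate 1 or 2 (up to 0.077); that for clec-54 ended with any 1 array other than wild-type replicate 2 left out (up to 0.128).

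Of 77 lysozyme and antimicrobial genes 3 rose and 5 fell (10.4%, beside 1.69% of all genes). Besides irg-1, the falls with the smallest p were irg-3, at 7.09 ± 0.04 in MT KO and 7.73 ± 0.15 in wild type (limma adjusted p = 0.0046), and the saposin-like genes spp-18 (−0.55, limma adjusted p = 0.00916) and spp-8 (−0.52, limma adjusted p = 0.00963). For spp-8 a second probe set differed by −0.04. The lysozyme genes lys-4 and ilys-2 rose by 0.44 and 0.77 (both limma adjusted p = 0.0261). Their calls ended when single arrays were left out, for lys-4 any but MT KO replicate 1 (limma adjusted p up to 0.0845) and for ilys-2 any but wild-type replicate 1 (up to 0.0894). Among 24 genes named as lying downstream of DAF-16, the transcription factor of insulin signalling, 1 rose and 2 fell (12.5%, beside 1.69% of all genes). The signal of dod-19 averaged 10.52 ± 0.07 in MT KO and 11.16 ± 0.17 in wild type (limma adjusted p = 0.00716), and its second probe set differed by −0.16.

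Of 37 acid phosphatase and protease genes 3 rose and 1, asp-8, fell (10.8% passed, beside 1.69% of all genes). All 3 that rose code for cathepsin B-like gut proteases. The signal of cpr-1 averaged 12.47 ± 0.02 in MT KO and 11.93 ± 0.08 in wild type (difference 0.54, limma adjusted p = 0.00857), cpr-4 differed by 0.55 (limma adjusted p = 0.0179) and cpr-5 by 0.40 (limma adjusted p = 0.0239). These are bright probe sets with small differences. The calls of cpr-4 and cpr-5 ended without MT KO replicate 2 or 3 or wild-type replicate 2, and that of cpr-5 also without MT KO replicate 1 (limma adjusted p up to 0.0656 and 0.0691).

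**Figure D4:**
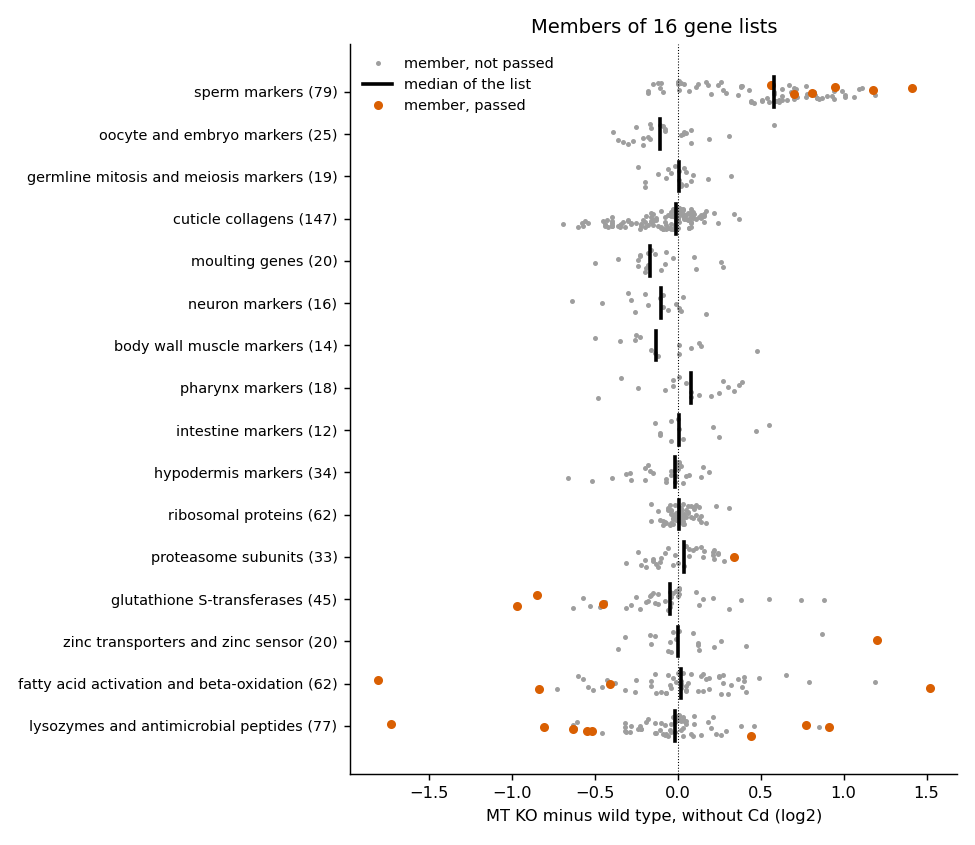
Difference in log2 signal, MT KO minus wild type without Cd, for the measured members of 16 gene lists (1 point per gene), with members that passed the test in orange and the list median as a line. Most medians lie near 0, and the sperm list has its median at 0.58.

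Of all lists with more than 2 members, that of sperm markers had the median farthest from 0. Its 79 genes, which hold the major sperm proteins and other genes transcribed as L4 hermaphrodites make sperm, had a median difference of 0.58, beside 0.0 over all genes, and 70 of the 79 differences were above 0. The groups did not overlap in 37 of them (higher in MT KO), as in 7.78% of all genes. The test was passed singly by 6 (7.59%), all higher, beside 0.952% of all genes. Those named here are sss-1, msrp-1, spe-55 (difference 0.95, limma adjusted p = 0.0113), the sperm phosphatases gsp-4 (0.81, limma adjusted p = 0.0153) and gsp-3 (0.70, limma adjusted p = 0.0438), and ssp-37 (0.56, limma adjusted p = 0.0194). The phosphatase pair are near-identical copies read by probe sets open to cross-hybridisation, so they may be 1 measurement. None of the 23 major sperm protein genes passed, with differences of 0.44 to 1.06 and adjusted p from limma of at least 0.0612; these genes too are near-identical.

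The mean log2 signal over the 79 genes was 6.62, 6.80 and 7.11 on the MT KO arrays and 6.57, 6.20 and 6.19 on the wild-type arrays. Replicate 1 of MT KO and replicate 1 of wild type were thus almost equal, and that wild-type array is the one with the widest 3′ to 5′ gap. With the 3′ to 5′ gap as a covariate the list's median was 0.71 and 12 genes rose, none fell, and without that wild-type array the median was 0.73. The part of stage in the list's difference was not tested. Summed on the linear scale the groups overlapped, with 47300, 58600 and 73700 in MT KO and 49100, 33200 and 35500 in wild type. The number of sperm genes that passed moved with the setting: it was 0 with the 6 arrays alone, 28 with array weights, and 2 to 11 with 1 array left out, the 11 without wild-type replicate 1; without wild-type replicate 3, 1 gene of the list fell. In whole animals, more cells making sperm and more RNA per cell cannot be told apart. In the arrays with Cd the list stood on the other side, with a median of −1.35 and 51 of 79 genes lower in MT KO (5.3% of all genes were lower there). Of the singly named genes, gsp-3 lost its call with any array left out (limma adjusted p up to 0.124), gsp-4 without wild-type replicate 2 (0.0504), and ssp-37 without replicate 2 of either strain (up to 0.0705).

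Other markers of stage and tissue did not pass. None of 25 oocyte and embryo genes, 19 genes of germline mitosis and meiosis, 5 vitellogenins, 147 cuticle collagens or 20 moulting genes did, nor any of 16 neuron, 14 body wall muscle, 18 pharynx, 12 intestine or 34 hypodermis markers. Their medians lay between −0.27 for the vitellogenins and 0.08 for the pharynx markers. The defining markers were above the median on all 6 arrays for intestine (elt-2 from 4.93 to 5.63), muscle (unc-54 from 11.22 to 12.47), neurons (rab-3 from 6.99 to 7.59), hypodermis (dpy-7 from 9.74 to 10.20) and germline (pgl-1 from 7.55 to 7.73). For pharynx, myo-2 was above the median on all 6 (6.88 to 7.49), while pha-4 lay on both sides of it (3.9 to 4.21). The adult collagen col-19 was dim on all 6, at 3.28 to 3.43. Of 81 genes related to hedgehog and patched proteins, many of them active in the epidermis, 2 fell (2.47%, close to the 1.69% of all genes). They were ptr-11 and ptr-1, at 4.64 ± 0.10 and 5.73 ± 0.14 in MT KO, against 5.57 ± 0.20 and 6.28 ± 0.15 in wild type. The call for ptr-1 ended without MT KO replicate 3 (limma adjusted p = 0.0519).

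In the large receptor families the share that passed was below the 1.69% of all genes, but most members were dim: both group means were below the median of all values in 1172 of 1180 chemoreceptor genes, 161 of 259 nuclear hormone receptor genes and 374 of 445 F-box, MATH and BTB genes. Of 1180 chemoreceptor genes 2 rose, srw-85 and str-168 (difference 0.96, limma adjusted p = 0.0153), and of 259 nuclear hormone receptor genes only nhr-156 passed. The wild-type mean of str-168 was 2.57 ± 0.17, a background-like level, and its call ended without MT KO replicate 2 (limma adjusted p = 0.061). Of 445 F-box, MATH and BTB genes 2 fell, and none of 62 ribosomal protein genes passed. In all, 64 of the 289 genes that passed were on at least 1 of the 45 lists and 225 on none. The lists hold 3470 genes, of which 1.84% passed, close to the 1.69% of all genes; 117 of the 289 go by a clone name only.

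In the 6 arrays with 30 µM Cd the strains were compared in animals whose levels do not enter the difference without Cd, although their spread does enter its test. There 1930 probe sets passed (8.56%), 817 higher (3.62%) and 1113 lower (4.94%) in MT KO. Of the 371 that had passed without Cd, 189 (50.9%) had the same sign with Cd. The test was passed with Cd in the same direction by 45 (12.1% of the 371 and 2.33% of the 1930), in the opposite direction by 58 (15.6%), and not at all by 268. The 212 higher probe sets had a median difference of 0.69 without Cd and −0.03 with it, and the 159 lower ones −0.61 and −0.02. Most of the 371 therefore did not pass in the same direction in the cadmium arrays. The interaction of strain and Cd passed in 208 of the 371 (56.1%, against 5.45% of all probe sets), but it uses the same arrays that selected them and so is no independent test.

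By gene, 37 passed in both conditions in the same direction, 18 higher and 19 lower. Of all 17118 genes 9.22% passed with Cd, 3.92% higher and 5.3% lower. For 35 of the 37 the interaction, which 5.8% of all genes passed, did not pass. For mtl-1 it did pass (−4.66, limma adjusted p = 0.000162). The 37 were picked for passing in the same direction in both conditions, which favours a small interaction. The count of 35 is thus a description only. The 37 include, of the genes with the largest changes, srw-85, fat-7 and clec-52 among the rises and mtl-2, mtl-1, asp-8 and acd-1 among the falls. The differences of clec-52 were 1.17 without and 0.62 with Cd, and those of acd-1 were −1.28 and −0.93. A further one, chosen after its values were seen, is the uncharacterised gene Y41G9A.5, which gave 7.66, 8.05 and 8.03 in MT KO and 6.72, 6.88 and 7.0 in wild type without Cd. With Cd it gave 7.48, 7.71 and 7.84 in MT KO and 6.54, 6.81 and 6.66 in wild type. Its difference was 1.05 without Cd (limma adjusted p = 0.00745) and 1.0 with it (limma adjusted p = 0.0021), and no MT KO array of either condition overlapped a wild-type array.

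In opposite directions 48 genes passed, of which 38 were higher in MT KO without Cd and lower with it, and 10 the reverse. Of the 38, F53B6.4 differed by 1.20 without and −1.80 with Cd, Y57G11A.2 by 1.15 and −0.94, msrp-1 by 1.18 and −1.01, and pck-3 by 0.45 and −1.11. The uncharacterised gene C06A8.6, chosen after its values were seen, averaged 6.52 ± 0.19 in MT KO and 5.53 ± 0.12 in wild type without Cd. With Cd the means were 3.41 ± 0.22 in MT KO and 5.49 ± 0.19 in wild type. With Cd the level differed by −0.04 in wild type and by −3.11 in MT KO from that without Cd. On the sperm list were 4 of the 48, or 5.06% of its 79 genes, beside 0.28% of all genes. The gene clec-67 is one of the 10.

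**Figure D5:**
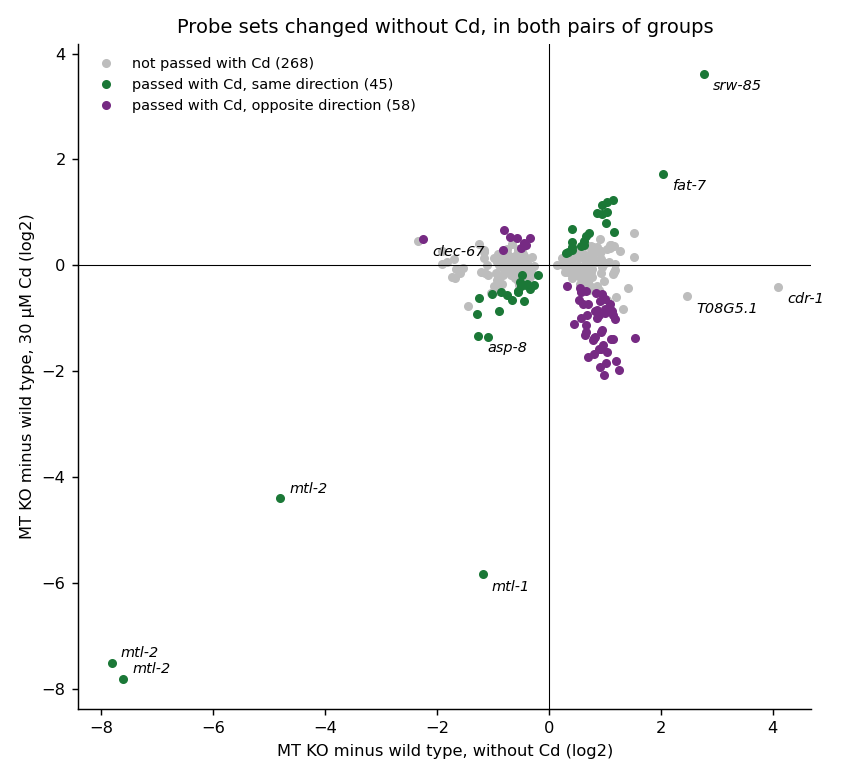
Difference in log2 signal between MT KO and wild type with 30 µM Cd (vertical axis) against that without Cd (horizontal axis) for the 371 probe sets that passed without Cd, coloured by whether they passed with Cd in the same direction (45), in the opposite direction (58) or not (268). The mtl-2 probe sets lie far down on the side of lower signal in both, and most other points scatter around 0 on the vertical axis.

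The genes that passed lay on all chromosomes. The share of measured genes that passed was 1.82% on chromosome I, 1.36% on II, 1.51% on III, 2.58% on IV, 1.67% on V and 1.19% on X, beside 1.69% of all genes. Both metallothionein genes are on chromosome V, with 1527 measured genes between them, and 13 of the 37 genes that passed in both conditions in the same direction (35.1%), mtl-1 and mtl-2 among them, were on that chromosome. It holds 25.2% of all measured genes and 24.9% of those that passed without Cd. Among the 10 measured genes on each side of either locus, 40 in all, 3 passed without Cd, beside 1.69% of all genes. The 3 were T08G5.1 next to mtl-2, the gene algn-13 10 places from mtl-2 (difference −0.54, limma adjusted p = 0.0389), and K11G9.5 next to mtl-1. The call for algn-13 ended with any 1 array other than wild-type replicate 2 left out (limma adjusted p up to 0.0978). With Cd, 5 of the 40 passed, beside 9.22% of all genes.

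The signal of K11G9.5 was 4.55, 4.92 and 4.86 in MT KO and 5.44, 5.74 and 5.78 in wild type, and with Cd it was 4.60, 4.65 and 4.97 in MT KO and 5.59, 5.81 and 5.41 in wild type. The strain difference was −0.88 without Cd (limma adjusted p = 0.0234) and −0.86 with it (limma adjusted p = 0.00689), while with Cd the gene differed by −0.04 in MT KO and −0.05 in wild type from the arrays without Cd. Its second probe set differed by −0.40 without Cd (limma adjusted p = 0.402). Without Cd the call ended with any 1 array other than wild-type replicate 1 left out (limma adjusted p up to 0.0811). Whether the mutated loci, or other differences between the strains near them, reach these neighbours was not tested.

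Where a gene had several probe sets, they often did not all pass. Of 101 such genes with at least 1 call, all probe sets passed in the same direction in 3, mtl-2 being one, while in 98 at least 1 did not pass. The sign was the same at all probe sets in 66 of the 101, and in none did 2 probe sets pass in opposite directions. Besides acs-2, ftn-2, spp-8 and dod-19, this touches spe-55, whose second, dim probe set differed by 0.25 (limma adjusted p = 0.716), and ptr-11, whose second one differed by −0.84 (limma adjusted p = 0.177). No gene is named from the 25 probe sets that passed but do not carry exactly 1 symbol.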

How the data were processed

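Total RNA from whole larvae (200 ng per sample) was amplified, labelled with biotin and hybridised, per the labels' protocols. The authors deposited 1 table of log2 values, each for 1 probe set on 1 array. GCRMA, per the submitters' processing notes, was the method; it adjusts for background, makes the arrays' distributions alike and merges the probes that form a set. Neither its version nor a genome build is given in the sources used here. That the scale is log2 was inferred from the range of 1.56 to 14.5. Of 22625 features, 77 control probe sets were left out and 22548 tested. Exactly 1 gene symbol is given for 20766 probe sets by the platform annotation, several for 887 and none for 895; all 20766 matched the RefSeq table of assembly WBcel235, used for names, chromosomes and neighbours only.

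A model with 4 group means was fitted to the 12 arrays in limma 3.58.1 (R 4.3.3; 8 residual and 1.38 prior degrees of freedom), with no filter and no further normalization. All tests were two-sided. Where a gene has several probe sets, the one with the highest 12-array mean represents it. Named are the 15 largest rises and 15 largest falls among the genes that passed, with groups that do not overlap and a higher mean above the median, together with hmt-1, pcs-1, cdr-1 and both metallothionein genes and up to 6 members of each of 45 lists with the smallest adjusted p. The genes and lists were chosen with earlier results of these data known. The fit was tested on simulated data. The alternatives tried were an intensity trend, robust moderation, the 6 arrays alone, quantile and median scaling, a filter on dim probe sets, the replicate number as a block, RNA quality as a covariate, array weights, and each array left out. The number of arrays limits the precision. Python 3.11.15, pandas 2.3.3, numpy 2.4.6 and matplotlib 3.10.9 were used for tables and figures.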

Additional observations from a re-analysis of the deposited data

Results flagged for a closer look

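For the following genes the strain difference itself differed between the arrays with Cd and those without, by the interaction term of the limma fit (adjusted p under 0.05). Each value is the log2 difference MT KO minus wild type with Cd minus the same difference without Cd. Most of these genes were named for their difference without Cd, which enters the interaction, so the values are a description.

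Among metal genes it was −4.66 for mtl-1, −4.51 for cdr-1, −1.79 for cdf-2 and 0.55 for mrp-1. The wild-type rise of mtl-1 and cdr-1 with Cd (5.1 and 6.78) enters these values. For the other genes that were higher in MT KO without Cd, it was −3.06 for T08G5.1, −3.0 for F53B6.4, −3.07 for C06A8.6, −2.09 for Y57G11A.2, −1.36 for hsp-12.3, −1.32 for lipl-4, −1.17 for nhr-156, −1.0 for str-168, −1.57 for pck-3 and −0.47 for rpn-7. On the sperm list it was −1.84 for sss-1, −2.19 for msrp-1, −2.44 for gsp-3, −2.49 for gsp-4, −1.49 for spe-55 and −0.59 for ssp-37.

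For genes that were lower in MT KO without Cd, it was 2.73 for clec-67, 2.18 for B0024.4, 1.93 for Y48E1B.8, 1.87 for acox-1.2, 1.80 for B0348.2, 1.65 for K11H12.4, 1.57 for C34H4.1, 1.49 for irg-1 and 1.45 for srlf-34. Smaller ones were 1.28 for ugt-31, 1.08 for acox-1.5, 0.83 for gst-12, 0.80 for acox-1.1 and dod-19, 0.68 for spp-18, 0.64 for irg-3 and 0.54 for gst-39. For lysozyme and protease genes higher in MT KO without Cd it was −0.85 for ilys-2, −0.59 for lys-4, −0.76 for cpr-1, −0.58 for cpr-4 and −0.46 for cpr-5.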

How the results depend on the processing

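The number of probe sets that passed (371, of which 212 higher and 159 lower; 45 of them passed with Cd in the same direction and 58 in the opposite one) depended on how the spread was estimated. With the 6 arrays alone these counts were 23, 9, 14, 7 and 2, and 8 of the 30 genes with the largest changes kept their call, fewer arrays giving fewer residual degrees of freedom. Restricting the test to 11542 probe sets whose higher group mean without Cd was above the median gave 620 calls (398 higher, 77 and 144 with Cd). Of these, 290 were among the 371. That filter uses the 2 groups that are compared, so it is not independent of the test. Array weights gave 593 calls (360 higher, 71 and 168 with Cd). With 1 array left out the count ran from 168 to 461, the higher calls from 78 to 256, the lower calls from 82 to 205, those passing with Cd in the same direction from 19 to 55 and in the opposite direction from 20 to 91, and 23 to 29 of the 30 genes kept their call. The intensity trend (357), robust moderation (338), quantile normalization (338), median shift (430) and RNA quality as a covariate (321, of which 191 were among the 371) gave counts within 1.5 times. Same-numbered arrays of the strains did not deviate together (r = −0.2, 0.16 and −0.04), so the numbers were not taken as pairs; with the replicate block 312 probe sets passed, 162 higher and 150 lower, 49 and 47 with Cd, and 29 of the 30 genes kept their call. Over 71 genes and 15 alternatives no direction was reversed: 829 of 1061 values stayed on their side of the threshold and 232 no longer passed. Under every alternative 8 of the 30 genes passed, namely mtl-2, cdr-1, srw-85, T08G5.1, nhr-156, clec-67, srlf-34 and asp-8. The lists were described by counts and medians, and signals near background limit the dim genes; other causes of these shifts were not tested.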
